A study of Mus musculus with 18 samples.

Results

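Fibronectin (Fn1), the matricellular proteins tenascin C (Tnc), thrombospondin 1 and 2 (Thbs1, Thbs2), periostin (Postn) and osteonectin (Sparc), and the proteoglycans lumican (Lum), decorin (Dcn), biglycan (Bgn) and versican (Vcan) were followed across C2C12 muscle cells with and without edits at the Meg3 promoter. These 10 genes were taken by symbol from a table of 55450 gene IDs, and all 10 had enough counts to be tested. The set was chosen by name and, for 2 members, selected on measured values: Fn1 because it had the highest count of several libraries, and Lum because it was near 0 in the overexpressor. Fn1 is therefore described without a test in every comparison, and Lum without a test wherever the overexpressor enters. Counts of members that passed a test cover the other 8 genes in those comparisons and 9 genes, Lum included, elsewhere. Lum had enough counts to be tested only through control and knockout myotubes, so its calls within these counts are descriptions.

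The data were polyA RNA sequencing of C2C12, a mouse myoblast line that fuses into multinucleate myotubes when growth serum is replaced by a low level of horse serum. The 18 libraries formed 6 groups of 3 replicates (A, B and C): 3 lines, each as myoblasts in growth medium and as myotubes on day 3 of differentiation. The control line (labelled px) was a sorted, uncloned population that had received the pX458 CRISPR-Cas9 vector alone. The line labelled 2-4, an overexpressor of the Dlk1-Dio3 noncoding RNA cluster, and the line labelled 2-7, a knockout of it, had each received a pair of guide RNAs against the Meg3 promoter region and been grown up after dilution to single cells. Each edited genotype was thus 1 clone set against a mixed population, so that genotype and clone cannot be told apart. All 3 lines shared the C2C12 background, the transfection and the sort for green fluorescence. Nothing in the sources used here says that the replicates were separate experiments, so the p-values measure only the spread between these samples, which may be technical.

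Fibronectin is a large dimeric glycoprotein that cells assemble into fibrils through integrins, and it serves as an early scaffold of the extracellular matrix. Matricellular proteins are secreted into the matrix but act mainly on how cells adhere and respond to growth factors; several are induced in injured and regenerating muscle. The small leucine-rich proteoglycans lumican, decorin and biglycan bind collagen fibrils and growth factors, and versican is a large chondroitin sulphate proteoglycan that binds hyaluronan and is abundant in the matrix around myoblasts before and during fusion.

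Library totals ran from 41544358 to 79140702 counts. Levels are given in CPM, counts scaled to a common library size with its TMM factor, and a count of 3, the most that a count of 0 allows, was worth 0.0375 to 0.0693 CPM; intervals and such limits cover counting error only. Meg3, the long noncoding RNA whose promoter was edited, had 5222 to 7763 counts per library of the overexpressor and 0 in all control and knockout libraries. It therefore checks the label of the overexpressor and cannot separate knockout from control. All 8 myoblast and myotube markers (among them Myod1, Myog, Des and Ckm) were detected in every group, with a summed level of 1339 to 1560 CPM in control myoblasts, 2626 to 3336 CPM in overexpressor myoblasts and 11650 to 14450 CPM in knockout myoblasts. In myotubes that sum was 14880 to 15500 CPM in control, 23240 to 26440 CPM in the overexpressor and 34440 to 42210 CPM in the knockout. Replicate C of the overexpressor myotubes stood apart from A and B, with a chi-square per degree of freedom of 115 and 110 against 22.2 between A and B, and results that turn on it are given without it. Replicate B of the overexpressor myoblasts also stood apart, at lower values of 35 and 31 against 8.02 between A and C.

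Fn1 (chr1:71585520-71653200, minus strand, GRCm38, as are all positions here) had the highest CPM of the members in all 6 groups. In control myoblasts it was at 6141, 5320 and 5416 CPM in replicates A, B and C, and in control myotubes at 26210, 24140 and 24010 CPM. In overexpressor myoblasts it was at 9913, 10260 and 10770 CPM, and in their myotubes at 5531, 5391 and 4792 CPM. Fn1 was thus higher in myotubes than in myoblasts of the control and lower in myotubes than in myoblasts of the overexpressor, and the 2 lines did not overlap at either stage. In the knockout, Fn1 was at 5095, 5900 and 5628 CPM in myoblasts, overlapping the controls, and at 4295, 4631 and 4321 CPM in myotubes. As fitted log2 differences between myotubes and myoblasts, this was 2.14 (SE 0.08) in control, -0.98 (SE 0.08) in the overexpressor and -0.33 (SE 0.08) in the knockout.

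Fn1 alone held 2.19 to 2.34% of all counts in control myotubes, where it ranked first in each library, and 0.392 to 0.436% in knockout myotubes, where its rank was 18, 15 and 20. It also ranked first in the 3 overexpressor myoblast libraries and in replicate A of the control myoblasts. The 10 genes together held 3.95 to 4.09% of the counts in control myotubes and 1.88 to 2.00% in control myoblasts. Their share was 1.56 to 1.65% in overexpressor myoblasts, 1.22 to 1.31% in knockout myoblasts, 1.03 to 1.15% in overexpressor myotubes and 0.747 to 0.824% in knockout myotubes. The total was thus larger in myotubes than in myoblasts of the control and smaller in those of both clones, but Fn1, which was chosen by its level, weighs heavily in it. Without Fn1, a sum added after the data were seen, the share was 0.530 to 0.557% in overexpressor myoblasts and 0.559 to 0.597% in their myotubes, so that the order in that line turned around. The control went from 1.31 to 1.34% up to 1.75 to 1.82%, and the knockout from 0.667 to 0.697% down to 0.355 to 0.388%, on the same sum. Fn1 shares 292 bases of exon with the antisense gene Apol7d; whether strand was used in counting is not given in the sources used here, so reads of that stretch cannot be assigned to either.

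**Figure D1:**
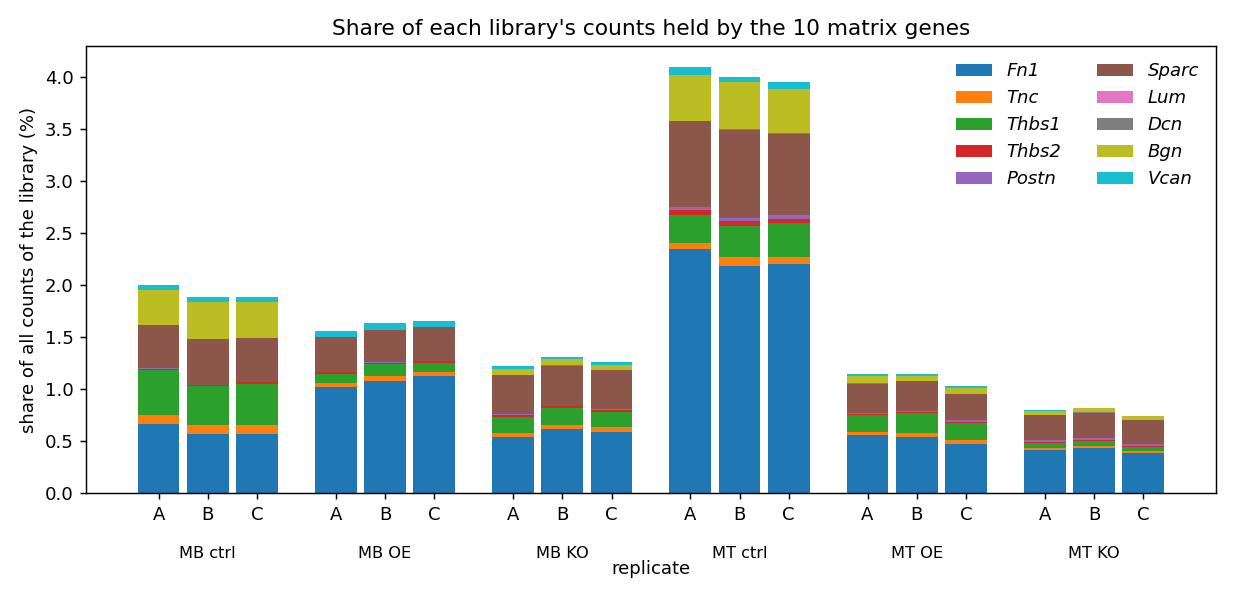
Share of all counts of each library (vertical axis, percent) held by the 10 matrix genes, stacked by gene, for replicates A to C of each group (MB, myoblasts; MT, myotubes; ctrl, vector control; OE, overexpressor; KO, knockout). Control myotubes reach 3.95 to 4.09%, mostly from Fn1 and Sparc, and knockout myotubes stay at 0.747 to 0.824%.

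Per kilobase of exon, where levels of different genes can be compared, Sparc was the highest member in 5 groups, from 669 ± 24.2 CPM per kb (mean ± SD, n = 3) in knockout myotubes to 2383 ± 116 in control myotubes. Fn1 followed in control myotubes at 2121 ± 106 CPM per kb. In overexpressor myoblasts Fn1 (883 ± 37.0) and Sparc (815 ± 48.2) overlapped. With the longest transcript as length, Sparc (1342 ± 79.4) came above Fn1 (1240 ± 51.9) there, again with overlap. Dcn and Lum were the lowest members in control myoblasts, at 0.321 CPM per kb and 0. The order among Bgn, Fn1 and Thbs1 rests on the length used: in control myoblasts the exon union put Thbs1 (614) above Bgn (525) and Fn1 (482), and the longest transcript put Bgn (1202) above Fn1 (677) and Thbs1 (638). All other levels below are CPM without a length term and are compared only within a gene.

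**Figure D2:**
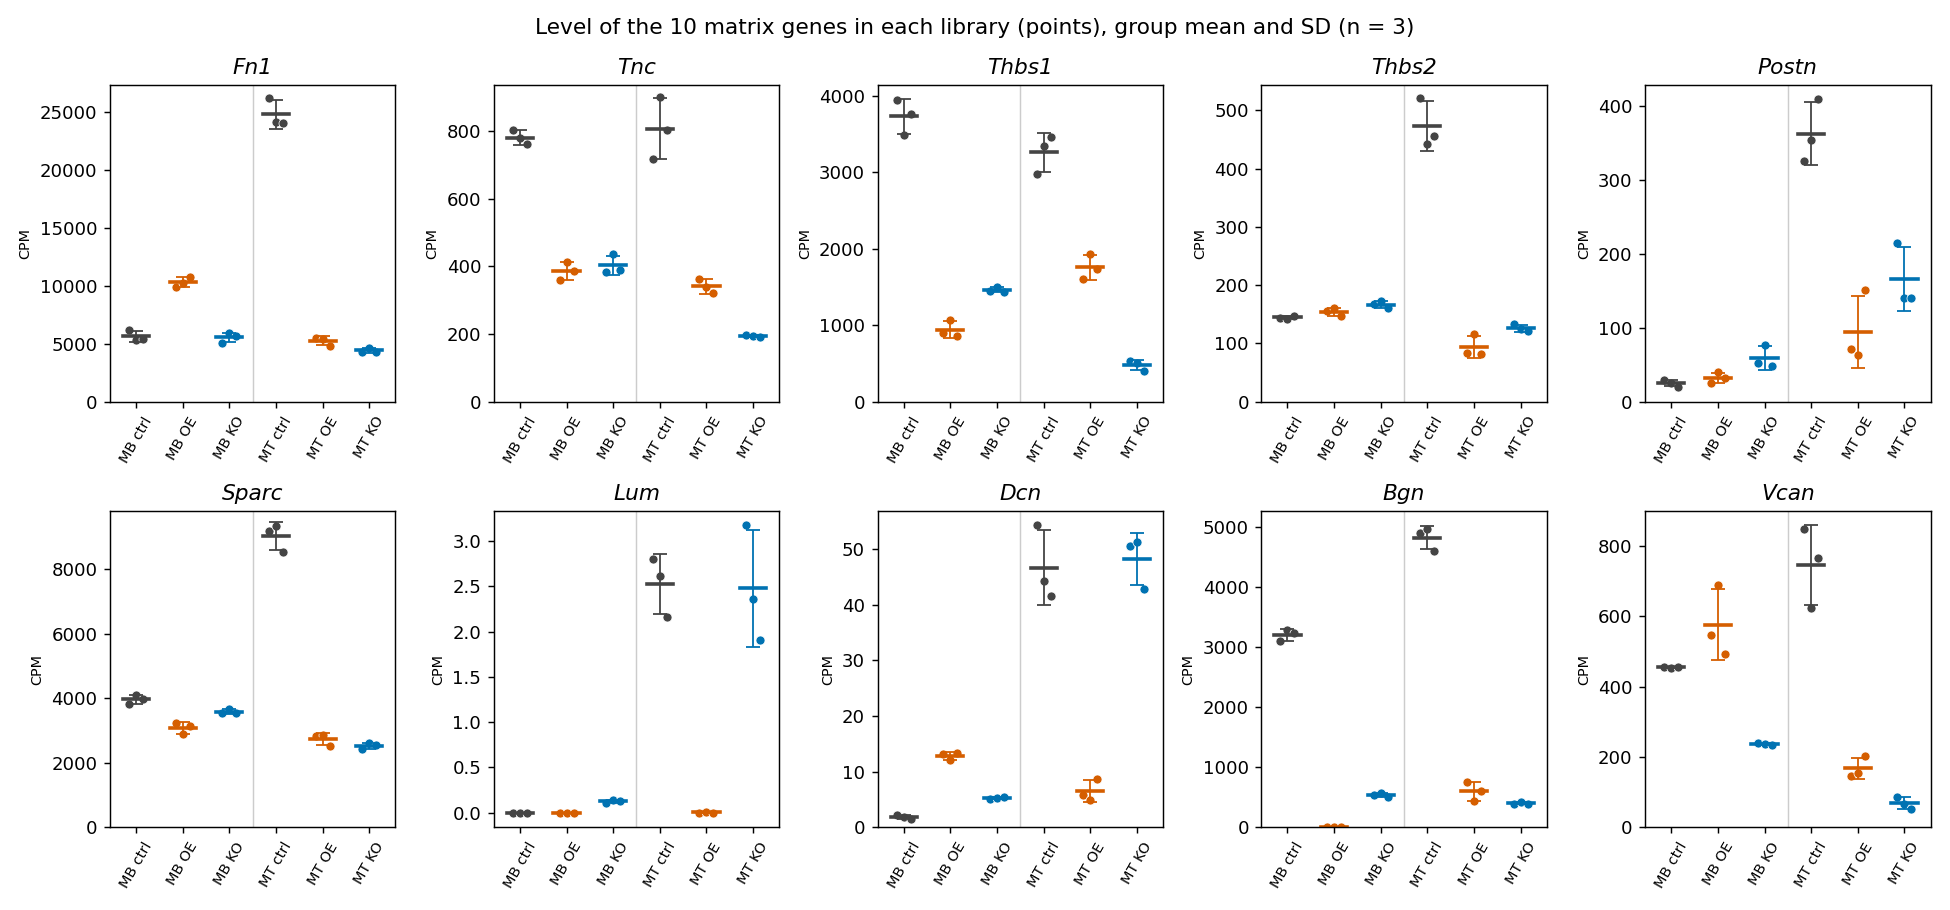
Level of each of the 10 genes in CPM (vertical axis, linear, a scale for each panel) in every library (points), with the mean (bar) and SD (whiskers) of each group of 3; MB, myoblasts, MT, myotubes, ctrl, vector control, OE, overexpressor, KO, knockout. Fn1, Thbs2, Postn and Sparc are highest in control myotubes, Lum and Dcn are high in control and knockout myotubes alike, and Bgn is near the axis in overexpressor myoblasts.

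Adjusted p-values below are from edgeR's quasi-likelihood test with Benjamini-Hochberg adjustment over the 17912 genes tested, and a gene rose or fell where that p was below 0.05. In bulk RNA, fewer cells that make a transcript and less transcript per cell cannot be told apart, and this holds for every value here. Among the matricellular members, tenascin C (Tnc, chr4:63959785-64047015, minus strand), a hexameric glycoprotein of developing and injured tissue, was lower in both clones at both stages. Tnc was at 802, 777 and 760 CPM in control myoblasts, at 359, 412 and 386 CPM in overexpressor myoblasts and at 384, 436 and 390 CPM in knockout myoblasts. The clones overlapped each other and both lay below the controls, by 1.02 (SE 0.08, adjusted p = 6.52e-09) in the overexpressor and 0.95 (SE 0.08, adjusted p = 1.01e-08) in the knockout on the log2 scale. In myotubes Tnc was at 718, 900 and 802 CPM in control, 364, 339 and 320 CPM in the overexpressor and 196, 194 and 191 CPM in the knockout. The 3 lines no longer overlapped: Tnc fell by 1.24 in the overexpressor (adjusted p = 2.09e-10) and by 2.06 in the knockout (adjusted p = 2.76e-13) relative to control, and it was higher in the overexpressor than in the knockout by 0.81 (SE 0.08, adjusted p = 1.36e-07). On differentiation Tnc fell in the knockout by 1.05 (SE 0.08, adjusted p = 2.53e-09). It did not pass in the control (0.05, SE 0.08, adjusted p = 0.608; -0.19 with adjusted p = 0.0486 when libraries were scaled by their totals) or in the overexpressor (-0.18, SE 0.08, adjusted p = 0.0555). The last value passed without replicate A of the overexpressor myoblasts (-0.23, adjusted p = 0.0323), without replicate A of its myotubes (-0.22, adjusted p = 0.0329) and with library totals (-0.23, adjusted p = 0.0199).

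Thrombospondin 1 (chr2:118111876-118127133, plus strand), a trimeric glycoprotein that can activate latent TGF-beta, had the 2 clones in opposite order at the 2 stages. In control it was at 3949, 3484 and 3754 CPM in myoblasts and 2970, 3339 and 3464 CPM in myotubes. In the overexpressor, Thbs1 was at 902, 1067 and 860 CPM in myoblasts and 1604, 1932 and 1737 CPM in myotubes. In the knockout it was at 1453, 1504 and 1436 CPM in myoblasts and 538, 504 and 406 CPM in myotubes. No group overlapped another, and the overexpressor was the lower clone in myoblasts and the higher in myotubes. Relative to control myoblasts Thbs1 fell by 1.98 (SE 0.11, adjusted p = 4.05e-11) in the overexpressor and by 1.35 (SE 0.10, adjusted p = 4.15e-09) in the knockout. Relative to control myotubes it fell by 0.89 (SE 0.10, adjusted p = 6.54e-07) and by 2.75 (SE 0.11, adjusted p = 3.01e-13). On differentiation it rose in the overexpressor by 0.90 (SE 0.10, adjusted p = 4.47e-07) and fell in the knockout by 1.6 (SE 0.11, adjusted p = 4.55e-10), and these responses differed by 2.50 (SE 0.15, adjusted p = 4.46e-10). The difference in control, -0.19 (SE 0.10, adjusted p = 0.107), passed when libraries were scaled by their totals (-0.44, adjusted p = 0.00268) or when the fit held only those 2 groups (-0.26, adjusted p = 0.00402). Tnc and Thbs1 share 176 and 208 bases of exon with genes on the opposite strand, 8030451A03Rik and Gm29233.

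Thrombospondin 2 (chr17:14665500-14694235, minus strand), a relative of Thbs1 that lacks the TGF-beta activating sequence, was nearly level across the lines in myoblasts and separated them in myotubes. Thbs2 was at 144, 142 and 148 CPM in control myoblasts, 155, 161 and 148 CPM in overexpressor myoblasts and 167, 172 and 161 CPM in knockout myoblasts. Neither clone passed against control (0.10, SE 0.10, adjusted p = 0.472; 0.21, SE 0.10, adjusted p = 0.0904), and the knockout did when the fit held only the 2 groups compared (0.20, adjusted p = 0.000151). In myotubes it was at 521, 442 and 456 CPM in control, 84.1, 116 and 82.2 CPM in the overexpressor and 133, 125 and 121 CPM in the knockout. Thbs2 rose on differentiation in control by 1.71 (SE 0.10, adjusted p = 4.84e-11) and fell in the overexpressor by 0.72 (SE 0.10, adjusted p = 4.51e-06) and in the knockout by 0.40 (SE 0.10, adjusted p = 0.00191). Relative to control myotubes Thbs2 fell by 2.33 in the overexpressor and by 1.90 in the knockout (adjusted p = 1.56e-12 and 1.64e-11). The control response therefore exceeded that of the overexpressor by 2.43 and that of the knockout by 2.11 (adjusted p = 2.37e-10 and 1.21e-09). The difference between the clones' responses was -0.32 (SE 0.14, adjusted p = 0.0689), and -0.49 (adjusted p = 0.00061) without replicate B of the overexpressor myotubes.

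Periostin (chr3:54361109-54391037, plus strand), a fasciclin-domain protein that supports collagen cross-linking, spread widely between replicates, with an SD of 11.8 to 51.3% of the group mean. Postn was at 28.7, 25.2 and 20.5 CPM in control myoblasts and 326, 354 and 410 CPM in control myotubes. It was at 25.3, 39.6 and 32.2 CPM in overexpressor myoblasts and 70.9, 63.0 and 151 CPM in overexpressor myotubes. In the knockout it was at 52.2, 77.2 and 47.9 CPM in myoblasts and 216, 141 and 140 CPM in myotubes. Postn rose on differentiation in each line: by 3.87 (SE 0.34, adjusted p = 1.07e-07) in control, 1.55 (SE 0.31, adjusted p = 0.000492) in the overexpressor and 1.49 (SE 0.31, adjusted p = 0.000691) in the knockout. The overexpressor's rise includes myotube replicate C, which stood apart, at 151 CPM against 70.9 and 63.0 CPM in A and B. This rise, and the lower level than in control myotubes given below, also passed without replicate C. The control response was larger than both, by 2.32 and 2.38 on the log2 scale (adjusted p = 0.000616 and 0.000402). In knockout myoblasts Postn was higher than in control by 1.25 (SE 0.31, adjusted p = 0.00349), and in myotubes lower by a log2 difference of -1.13 (SE 0.30, adjusted p = 0.00422). In the overexpressor Postn did not pass against control in myoblasts (0.38, SE 0.31, adjusted p = 0.373) and was lower in myotubes (-1.93, SE 0.31, adjusted p = 7.89e-05). The differences between the clones, -0.87 (adjusted p = 0.0284) in myoblasts and -0.80 (adjusted p = 0.0337) in myotubes, were lost without single libraries: in myoblasts without overexpressor replicate A (adjusted p = 0.108) or C (0.0707) or knockout replicate B (0.139), and in myotubes without overexpressor replicate A (0.129) or B (0.134) or knockout replicate A (0.156). The myoblast call was also lost with no filter on low counts (adjusted p = 0.066). That in myotubes was lost with no filter (adjusted p = 0.0955), library totals (0.057) or only the 2 groups in the fit (0.101).

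Osteonectin (chr11:55394500-55423183, minus strand), a small calcium- and collagen-binding glycoprotein, varied little between replicates, with an SD of 2.23 to 7.15% of the group mean. Sparc was at 3839, 4119 and 3966 CPM in control myoblasts, 3236, 2884 and 3143 CPM in overexpressor myoblasts and 3535, 3684 and 3559 CPM in knockout myoblasts. In myotubes it was at 9198, 9356 and 8529 CPM in control, 2846, 2869 and 2518 CPM in the overexpressor and 2431, 2607 and 2563 CPM in the knockout. Control myotubes lay above both clones, which overlapped each other: Sparc fell by 1.72 in the overexpressor (SE 0.07, 3.29-fold, adjusted p = 3.68e-13) and by 1.83 in the knockout (SE 0.07, 3.56-fold, adjusted p = 1.41e-13). Control was thus farther from each clone in myotubes than in myoblasts, by 1.35 for the overexpressor and 1.69 for the knockout on the log2 scale (interaction, adjusted p = 2.46e-09 and 1.37e-10). Sparc rose on differentiation in control by 1.18 (SE 0.07, adjusted p = 2.82e-11) and fell in the knockout by 0.50 (SE 0.07, adjusted p = 3.44e-06). In the overexpressor the difference of -0.17 (SE 0.07, adjusted p = 0.0335) rested on single libraries: it was -0.07 (adjusted p = 0.422) without replicate C of the myotubes, which stood apart, -0.13 (adjusted p = 0.14) without replicate A of the myoblasts and -0.16 (adjusted p = 0.0917) without replicate C of the myoblasts. Size factors from DESeq2 also ended the call (-0.08, adjusted p = 0.387). So did no filter on low counts (-0.14, adjusted p = 0.119) and only the 2 groups in the fit (-0.17, adjusted p = 0.146). Among myoblasts Sparc fell in the overexpressor by 0.36 (SE 0.07, adjusted p = 0.000215) relative to control, and the knockout did not pass (-0.15, SE 0.07, adjusted p = 0.0749). The knockout value passed with library totals (-0.17, adjusted p = 0.0276) and with only the 2 groups in the fit (-0.16, adjusted p = 0.00311). In myoblasts Sparc was lower in the overexpressor than in the knockout by a log2 difference of -0.22 (adjusted p = 0.00984), which did not pass without replicate B of the overexpressor (-0.17, adjusted p = 0.0563) or with DESeq2 size factors (-0.20, adjusted p = 0.0509). In myotubes the clones differed by 0.12 (adjusted p = 0.144), or by 0.20 (adjusted p = 0.021) without replicate C of the overexpressor and 0.22 (adjusted p = 0.00657) with library totals.

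Lumican and decorin lie side by side on chromosome 10 on the same strand, with 46984 bp between the end of Dcn (chr10:97479609-97518143, GRCm38) and the start of Lum (chr10:97565128-97572703). Lum was scarce everywhere. It had 0 counts in the 3 control myoblast libraries, 0 in the 3 overexpressor myoblast libraries, and 5, 8 and 7 counts in knockout myoblasts. In myotubes it had 148, 114 and 120 counts in control (2.80, 2.61 and 2.16 CPM), 0, 1 and 0 counts in the overexpressor, and 186, 141 and 91 counts in the knockout (3.18, 2.36 and 1.90 CPM). Lum was thus at the floor in control myoblasts as well as in the overexpressor, and its absence set the overexpressor apart from control only in myotubes. There control exceeded the overexpressor by a ratio of 551, with a 95% counting interval of 98.4 to 21800, and the knockout exceeded it by 552 (98.5 to 21800). These ratios rest on 1 count in the overexpressor and chose the gene, so they are a description.

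In the other comparisons, Lum passed the filter on low counts through control and knockout myotubes, the groups where it was high. Passing that way favours a rise on differentiation, so the p-values of its rises are descriptions. Lum rose on differentiation at least 41.9-fold in control (adjusted p = 1.91e-09), with the myoblasts set at a floor of 3 counts per library. Its rise in the knockout, from a level of 0.126 ± 0.019 CPM, was a log2 change of 4.27 (SE 0.32, adjusted p = 3.47e-08). Knockout myoblasts were at least 2.09-fold above the floor of control myoblasts (adjusted p = 0.000315). Control and knockout myotubes overlapped, at 2.53 ± 0.328 and 2.48 ± 0.645 CPM (log2 difference -0.02, SE 0.23, adjusted p = 0.995). Kera and Epyc, the other members of this gene cluster, had at most 3 counts in any library.

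Decorin, too, was lowest in the overexpressor among the myotubes, and at a higher level than Lum. Dcn was at 2.17, 1.96 and 1.49 CPM in control myoblasts, 13.1, 12.1 and 13.3 CPM in overexpressor myoblasts and 5.03, 5.37 and 5.48 CPM in knockout myoblasts. In myotubes it was at 54.2, 44.1 and 41.6 CPM in control, 5.87, 4.99 and 8.74 CPM in the overexpressor and 50.5, 51.2 and 42.8 CPM in the knockout. The overexpressor, the highest line in myoblasts, was the lowest in myotubes, and it did not overlap the other lines at either stage. Dcn rose on differentiation in control by 4.63 (SE 0.19, adjusted p = 6.34e-13) and in the knockout by 3.18 (SE 0.17, adjusted p = 7.83e-11), and fell in the overexpressor by 0.98 (SE 0.16, adjusted p = 5.24e-05). Relative to control, Dcn in the overexpressor was higher in myoblasts by 2.77 (SE 0.19, adjusted p = 1.44e-09) and lower in myotubes by a log2 difference of -2.84 (SE 0.17, adjusted p = 1.5e-10). The knockout was higher than control in myoblasts by 1.49 (SE 0.19, adjusted p = 2.79e-06) and did not pass in myotubes (0.05, SE 0.16, adjusted p = 0.804).

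Biglycan (chrX:73483602-73495933, plus strand), a close relative of decorin, was highest in control at both stages. Bgn was at 3094, 3280 and 3240 CPM in control myoblasts, 539, 569 and 514 CPM in knockout myoblasts and 12.3, 9.73 and 13.6 CPM in overexpressor myoblasts. Against control, Bgn fell by 8.08 in the overexpressor (log2 difference, SE 0.19; 270-fold, adjusted p = 6.64e-15), on 451 to 614 counts per library, and in the knockout fell by 2.57 (SE 0.15, adjusted p = 2.01e-10). In myotubes Bgn was at 4897, 4969 and 4598 CPM in control, 754, 440 and 611 CPM in the overexpressor and 395, 424 and 398 CPM in the knockout. The clones were close to each other there, with the overexpressor above the knockout by 0.57 (SE 0.14, adjusted p = 0.00223), and both were lower than control by log2 differences of -3.00 and -3.57 (adjusted p = 2.41e-11 and 3.1e-12). On differentiation Bgn rose by 5.67 in the overexpressor (SE 0.17, 50.8-fold, adjusted p = 3.55e-14) and by 0.59 in control (SE 0.14, adjusted p = 0.00134). In the knockout it fell by 0.41 (SE 0.14, adjusted p = 0.015), a call that was lost with DESeq2 size factors (-0.29, adjusted p = 0.0756).

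Versican (chr13:89655312-89742509, minus strand), the large proteoglycan of the set, fell on differentiation in both clones and rose in control. Vcan was at 456, 453 and 456 CPM in control myoblasts and 849, 624 and 765 CPM in control myotubes. In the overexpressor it was at 548, 689 and 492 CPM in myoblasts and 146, 154 and 203 CPM in myotubes. In the knockout it was at 240, 236 and 233 CPM in myoblasts and 86.5, 67.9 and 51.9 CPM in myotubes. No group overlapped another within a stage. The rise in control was 0.71 (SE 0.17, adjusted p = 0.00194), and the change was -1.78 in each clone (SE 0.18 in both; adjusted p = 2.7e-07 in the overexpressor and 4.19e-07 in the knockout). Relative to control myoblasts Vcan fell in the knockout by 0.95 (SE 0.17, adjusted p = 0.00025), and the overexpressor did not pass (0.34, SE 0.17, adjusted p = 0.131), except with only the 2 groups in the fit (0.31, adjusted p = 0.0357). Relative to control myotubes it fell by 2.15 (SE 0.18) in the overexpressor and by 3.44 (SE 0.19) in the knockout (adjusted p = 4.67e-08 and 3e-10).

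The promoters of 4 members are shown because their genes divided the lines in different ways. Bgn differed most between the lines in myoblasts, and Tnc was lower in both clones at both stages. On differentiation Thbs2 rose in control and fell in both clones, and Postn rose in all 3 lines, most in control. RefSeq (GRCm38.p6) gave promoters for 6 of the 10 members, 8 promoters in all, and each window is the 250 bases before the start, 5′ to 3′ on the gene's strand. Both strands were searched, and capitals mark the letters of a TATA box (TATAAA) or an E-box (CANNTG, the kind of site that MyoD-family factors bind). The windows are Bgn chrX:73483351-73483600 (+), Thbs2 chr17:14694263-14694512 (-), Postn chr3:54360857-54361106 (+) and Tnc chr4:64047016-64047265 (-).
Bgn: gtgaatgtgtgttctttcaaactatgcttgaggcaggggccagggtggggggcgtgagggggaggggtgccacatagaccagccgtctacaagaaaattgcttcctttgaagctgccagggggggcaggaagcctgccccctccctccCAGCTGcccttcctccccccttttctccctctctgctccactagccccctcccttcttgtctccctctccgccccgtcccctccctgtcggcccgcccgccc
Thbs2: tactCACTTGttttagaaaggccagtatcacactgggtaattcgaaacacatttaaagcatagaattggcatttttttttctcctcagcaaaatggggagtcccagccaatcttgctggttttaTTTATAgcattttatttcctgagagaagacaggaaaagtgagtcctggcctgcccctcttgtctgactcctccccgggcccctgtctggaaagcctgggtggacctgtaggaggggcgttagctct
Postn: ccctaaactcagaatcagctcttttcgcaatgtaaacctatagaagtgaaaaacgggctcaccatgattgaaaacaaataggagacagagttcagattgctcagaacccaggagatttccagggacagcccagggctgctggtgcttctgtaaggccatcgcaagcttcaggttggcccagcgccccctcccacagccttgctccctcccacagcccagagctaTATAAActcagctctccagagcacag
Tnc: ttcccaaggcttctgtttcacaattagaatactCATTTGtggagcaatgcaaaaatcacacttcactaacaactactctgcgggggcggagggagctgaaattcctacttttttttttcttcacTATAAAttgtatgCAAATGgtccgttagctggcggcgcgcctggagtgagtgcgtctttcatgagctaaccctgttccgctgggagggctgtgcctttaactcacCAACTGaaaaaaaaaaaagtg
For Postn and Tnc, which have 2 promoters each in the table, the second and the first listed are shown. The Postn window shown had TATAAA with its first base 26 bases before the start and no E-box, while Bgn had 1 E-box, 102 bases before the start, and no TATA box. The Tnc window held 3 E-boxes and 1 TATA box, and Thbs2 held 1 of each. The other Postn promoter held neither motif, and the other Tnc promoter, which overlaps the one shown, held 2 E-boxes and 1 TATA box. An E-box was present in 66.2% and TATAAA in 12.4% of the 32841 mouse promoters searched the same way. The AP-1 letters TGANTCA (6.75% of promoters), the CRE letters TGACGTCA (1.55%) and the TEAD letters GGAATG (12.6%) were in none of the 8 member promoters, and CCAAT (33.9%) was in those of Vcan and Thbs2. CANNTG is its own reverse complement, so each match counts once, the TATA letters of Thbs2 are on the opposite strand, and no 2 of the marked matches share a base. These matches are letters in a window and say nothing about binding, and an absent motif says only that those letters are not in these 250 bases.

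Of the 8 members counted in overexpressor against control myoblasts, 1 was higher (Dcn), 4 were lower (Bgn, Thbs1, Tnc, Sparc) and 3 did not pass, with a median log2 difference of -0.13 against 0.02 over all genes; 40.4% of all genes passed (20.7% higher, 19.7% lower). In knockout against control myoblasts 3 of 9 were higher (Lum, Dcn, Postn), 4 lower (Bgn, Thbs1, Tnc, Vcan) and 2 did not pass, against 53.0% of all genes (26.4% higher, 26.6% lower). Dcn was thus higher, and Bgn, Thbs1 and Tnc lower, in both clones, which were compared with the same control libraries. In overexpressor against knockout myoblasts 2 of 8 were higher (Vcan, Dcn), 4 lower (Bgn, Thbs1, Postn, Sparc) and 2 did not pass, against 52.6% of all genes (25.7% higher, 26.9% lower). The calls of Postn and Sparc there did not hold under every alternative.

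In myotubes all 8 members counted were lower in the overexpressor than in control, with a median log2 difference of -2.04 against -0.04 over all genes, and 57.1% of all genes passed (26.2% higher, 30.9% lower). In the knockout 7 of 9 were lower than control, none was higher, and Dcn and Lum did not pass, with a median of -1.90 against -0.07; 68.0% of all genes passed (31.0% higher, 37.0% lower). Scaling by library totals moved the share of higher genes among all called in overexpressor against control myotubes from 45.8% to 57.8%, and the 8 members were lower under that scaling too. Between the clones, 4 of 8 were higher in overexpressor myotubes (Thbs1, Vcan, Tnc, Bgn), 3 lower (Dcn, Postn, Thbs2) and 1 did not pass, against 59.7% of all genes (30.6% higher, 29.1% lower). The call of Postn there did not hold under every alternative.

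**Figure D3:**
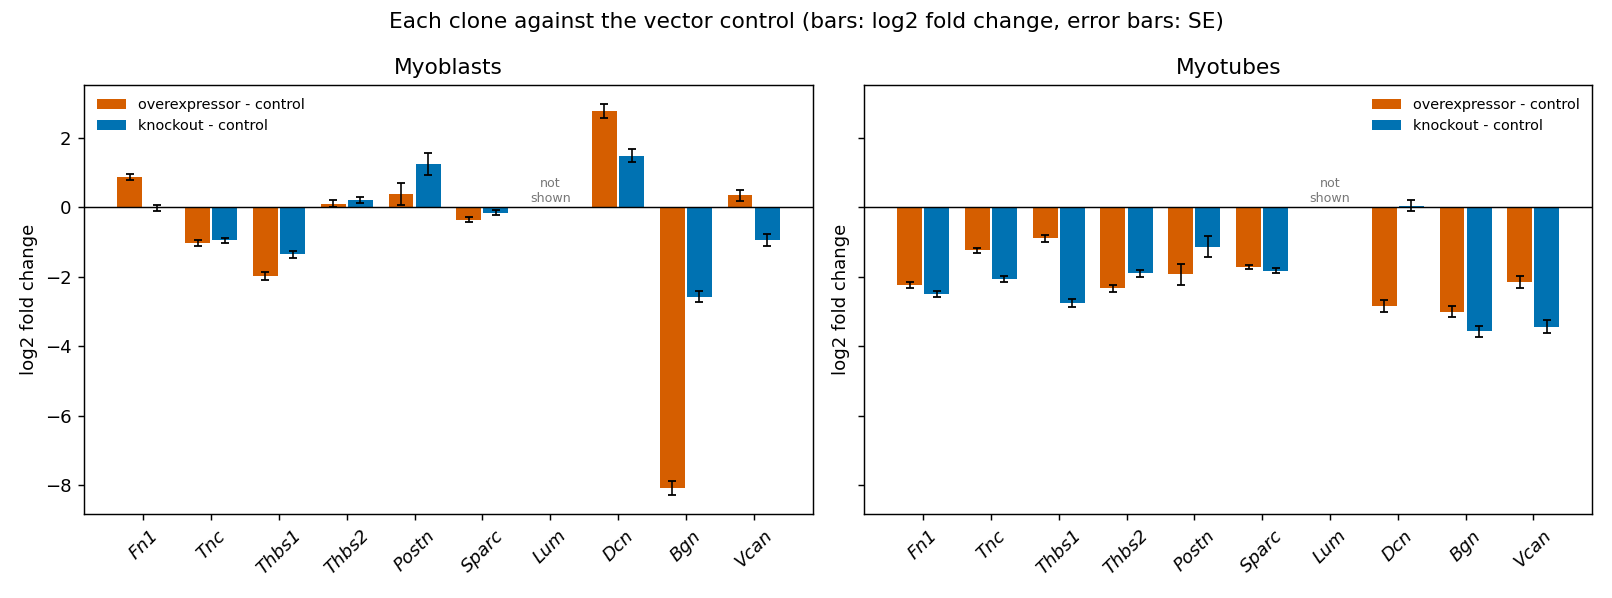
Fitted log2 fold change (vertical axis) of each gene in the overexpressor (orange) and the knockout (blue) against the vector control, in myoblasts (left) and myotubes (right), with SE as whiskers; Lum is not shown because some of its groups were at 0. In myoblasts Dcn is above 0 and Bgn below it in both clones, and in myotubes every bar but that of Dcn in the knockout lies below 0.

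On differentiation of the control line 7 of 9 members rose, none fell, and Tnc and Thbs1 did not pass; the median log2 change was 1.18, with Lum at its bound or as fitted, against 0.07 over all genes, of which 62.8% passed (33.9% higher, 28.8% lower). Lum, among those that rose here and in the knockout, passed the filter on low counts through its myotubes. With library totals 2 members fell in control, Tnc and Thbs1, and with only the 2 groups in the fit 1 did, Thbs1. In the overexpressor 3 of 8 rose (Bgn, Postn, Thbs1), 4 fell (Vcan, Dcn, Thbs2, Sparc) and Tnc did not pass, against 62.8% of all genes (29.8% higher, 33.0% lower). The results for Sparc and Tnc there did not hold under every alternative. In the knockout 3 of 9 rose (Lum, Dcn, Postn) and 6 fell (Vcan, Thbs1, Tnc, Sparc, Bgn, Thbs2), against 65.4% of all genes (29.8% higher, 35.6% lower). Scaling by library totals shifted the median of all genes in control from 0.07 to -0.17, and the share of higher genes among those called there from 54.0% to 37.9%. For the knockout the median went from -0.08 to -0.24 and the share from 45.5% to 34.0%.

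**Figure D4:**
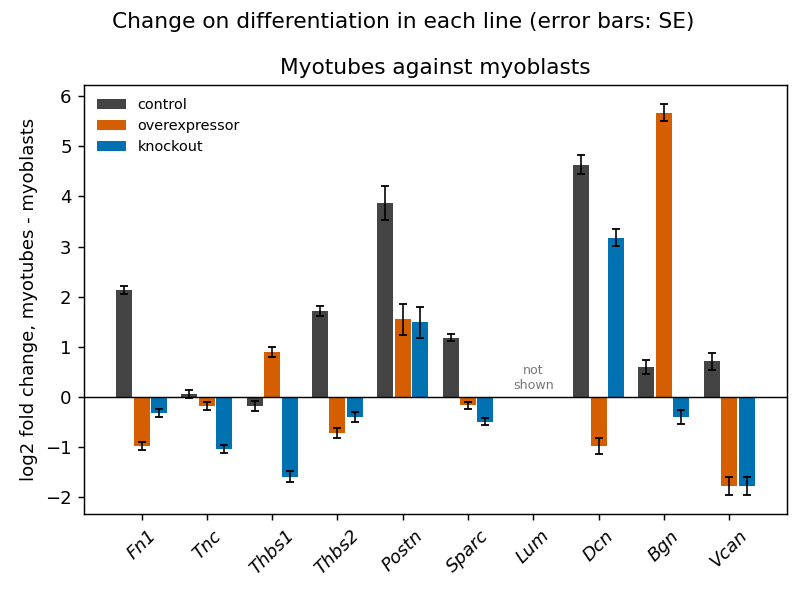
Fitted log2 fold change of each gene between myotubes and myoblasts (vertical axis) in the control (grey), overexpressor (orange) and knockout (blue) lines, with SE as whiskers; Lum is not shown because its myoblast groups were at or near 0. Grey bars lie above 0 for 7 genes and near 0 for Thbs1 and for Tnc, whose sign changes with library totals; orange stands out at 5.67 for Bgn, and Vcan is at -1.78 in both clones.

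The difference between the responses of 2 lines was tested as an interaction. The overexpressor's response was lower than that of control for 5 of 8 members (Dcn, Vcan, Thbs2, Postn, Sparc), higher for 2 (Bgn by 5.08, Thbs1 by 1.09) and not different by the test for Tnc, against 39.0% of all genes (16.6% higher, 22.3% lower). The Tnc difference was -0.23 (SE 0.11, adjusted p = 0.117), and -0.3 (adjusted p = 0.0351) without replicate A of the control myotubes. For Dcn the 2 responses differed by -5.60 (SE 0.25, adjusted p = 1.42e-11). The knockout's response was lower than that of control for 9 of 9, with a median of -1.69 as fitted and -1.44 with Lum taken from its bound, against 50.1% of all genes (20.2% higher, 29.9% lower) and a median of -0.12. Lum was among the 9. Its control and knockout myotubes overlapped, so its call rests on 20 summed counts in knockout against 0 in control myoblasts. DESeq2 size factors moved the share of higher responses among all called from 40.4% to 52.0% in the knockout and from 42.7% to 53.9% in the overexpressor. The overexpressor's response exceeded that of the knockout for 4 of 8 (Bgn, Thbs1, Tnc, Sparc), was lower for Dcn and did not pass for 3, against 46.7% of all genes (24.3% higher, 22.4% lower).

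Markers of other cell types also differed between the groups. The summed level of 8 fibroblast and progenitor markers (Pdgfra, Ly6a, Osr1, Tcf21, Dpt, Pi16, Dpp4, Cd34) was 362 to 386 CPM in control myoblasts, 464 to 590 CPM in overexpressor myoblasts and 53.1 to 57.5 CPM in knockout myoblasts. In myotubes it was 423 to 450 CPM in control, 44.0 to 48.8 CPM in the overexpressor and 24.6 to 27.0 CPM in the knockout, so that, like the 7 members that were lower there by the test (Tnc, Thbs1, Thbs2, Postn, Sparc, Bgn, Vcan), it was lower in both clones than in control. In overexpressor myoblasts the sum was above control, while Bgn, Thbs1, Tnc and Sparc were lower and Dcn was higher. In knockout myoblasts the sum was below control, as were Bgn, Thbs1, Tnc and Vcan, while Lum, Dcn and Postn were higher. The markers did not move as 1: in overexpressor against control myoblasts Ly6a was higher (502 ± 70.3 against 166 ± 7.50 CPM), while Cd34 (22.8 ± 1.80 against 164 ± 9.86), Osr1 (0.803 ± 0.119 against 13.4 ± 1.43) and Pdgfra (21.0 ± 1.25 against 30.0 ± 1.02) were lower. In the knockout, where the sum was lower, Pdgfra was higher than control in myoblasts (36.9 ± 0.990 CPM). In knockout myotubes Pdgfra made up most of the sum and overlapped control (18.8 ± 1.65 against 22.9 ± 3.32 CPM). Between 6 and 7 of the 8 markers had over 3 counts in a library of each group; Tcf21 was at 0 in both clones' and the control's myoblasts and in overexpressor myotubes, and Dpp4 in control and overexpressor myoblasts. Summed tendon and cartilage markers, mostly Scx, were 116 to 121 CPM in control, 61.6 to 77.8 CPM in overexpressor and 90.4 to 103 CPM in knockout myoblasts, and 142 to 160, 407 to 496 and 160 to 173 CPM in the myotubes. Endothelial, immune and adipocyte lists of 5 genes each summed to at most 3.64 CPM in any library. The part of these markers, and of the higher summed muscle markers of both clones, in the members' values was not tested.

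Other genes of the same families were counted from lists by role. Of 22 tested of 25 other matricellular genes, 16 were lower and 5 higher in overexpressor myotubes against control, where 30.9% of all genes were lower and 26.2% higher. In knockout myotubes 15 were lower and 5 higher, beside 37.0% and 31.0% of all genes. Spock2, a SPARC-related proteoglycan, was at 172 ± 4.90 CPM in control myoblasts and 88.1 ± 3.73 in control myotubes, against 0.784 ± 0.130 and 2.54 ± 2.03 in the overexpressor and 0.284 ± 0.210 and 0.239 ± 0.0323 in the knockout. Ccn3, a CCN-family regulator of adhesion, rose on control differentiation from 0.256 ± 0.112 to 34.2 ± 3.13 CPM (log2 change 7.03, SE 0.47, adjusted p = 2.81e-09) and had 1 to 4 counts per library in knockout myotubes. Fbln1 (fibulin 1) fell by 3.14 (adjusted p = 3.76e-14) on differentiation of the overexpressor, and Spp1 (osteopontin) by 2.64 (adjusted p = 6.63e-10) on that of the knockout.

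Of 9 tested of 13 other small leucine-rich proteoglycans, 6 rose and none fell on control differentiation, 5 rose and 2 fell in the overexpressor, and none rose and 7 fell in the knockout; of all genes 62.8%, 62.8% and 65.4% passed in these comparisons. In control 1 fell with library totals, with only the 2 groups in the fit or without replicate B of the myotubes, and in the knockout 1 rose without replicate A of the myoblasts. Fibromodulin (Fmod), a collagen-binding relative of lumican, was at 63.4 ± 3.35 CPM in control myoblasts and 570 ± 63.9 in control myotubes. In the overexpressor Fmod was at 0.554 ± 0.142 and 5.52 ± 2.45 CPM, and in the knockout at 339 ± 39.6 and 70.3 ± 1.11 CPM. The overexpressor was thus lower than control at both stages (log2 differences of -6.84 and -6.70, adjusted p = 2.78e-10 and 2.31e-11), and Fmod fell by 2.27 on differentiation of the knockout (adjusted p = 4.67e-07). Asporin (Aspn) was higher in knockout than in control myoblasts by 2.69 (SE 0.46, adjusted p = 0.000171), and osteomodulin (Omd) was at 7.89 ± 3.13 CPM in control and 0.0568 ± 0.0843 CPM in knockout myotubes, where replicate A alone was at 0.154 CPM and the others averaged 0.00837 CPM.

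Of 16 tested of 23 other proteoglycans and hyaluronan genes, 9 were lower and 5 higher than control in overexpressor myotubes and 10 and 5 in knockout myotubes, where 57.1% and 68.0% of all genes passed. The hyaluronan synthase gene Has1 was higher by 4.40 in myoblasts of the overexpressor than in those of control (41.4 ± 3.65 against 1.96 ± 0.277 CPM, adjusted p = 2.73e-11) and fell by 5.12 on differentiation there (adjusted p = 1.53e-12). Has2 fell by 2.43 on differentiation of the knockout (adjusted p = 4.11e-08), the link protein gene Hapln4 was higher by 2.47 in knockout than in control myoblasts (adjusted p = 3.47e-13), and Sdc3 (syndecan 3) fell by 2.83 in knockout against control myotubes (adjusted p = 3.42e-15). Sdc2 (syndecan 2) rose by 1.61 on control differentiation to 1416 ± 67.7 CPM, and in overexpressor myotubes it was at 282 ± 38.2 CPM (adjusted p = 1.97e-11 and 3.31e-13).

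Of 14 tested of 15 receptor genes for these proteins, 7 rose and 5 fell on control differentiation, 6 rose and 5 fell in the overexpressor, and 4 rose and 10 fell in the knockout. Of all genes 33.9% rose and 28.8% fell in control, 29.8% and 33.0% in the overexpressor, and 29.8% and 35.6% in the knockout. Cd36, a scavenger receptor that binds thrombospondins, rose in control from 0.183 ± 0.0795 to 14.0 ± 2.57 CPM (adjusted p = 8.91e-08) and in the overexpressor from 1.74 ± 0.158 to 80.4 ± 54.0 CPM (adjusted p = 1.64e-08). Replicate C of the overexpressor myotubes carried that mean at 142 CPM; without it Cd36 was at 44.3 and 54.4 CPM there, a log2 change of 4.87 (adjusted p = 6.09e-14). Cd36 was at 17.1 ± 1.86 CPM in knockout myoblasts and 57.8 ± 10.5 CPM in knockout myotubes, above control at both stages (adjusted p = 8.5e-08 and 8.61e-05). Among the integrin subunits, Itgb6 was higher by 2.28 in myoblasts of the overexpressor than of control (adjusted p = 2.44e-10), Itgb8 higher by 3.49 in overexpressor than in control myotubes (adjusted p = 2.98e-09), and Itgb3 fell by 1.87 on differentiation of the knockout (adjusted p = 9.82e-12).

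Of 19 tested of 21 genes that build or sulphate the chondroitin and dermatan chains of proteoglycans, 10 were lower and 4 higher in overexpressor than in control myotubes, and 12 were lower and 4 higher in knockout myotubes; 57.1% and 68.0% of all genes passed there. Csgalnact1, which starts chondroitin chains, was at 62.3 ± 3.50 CPM in control myotubes, 16.0 ± 2.36 in the overexpressor and 13.4 ± 1.78 in the knockout (adjusted p = 4.52e-11 and 8.81e-12). In myoblasts, Ust fell by 0.71 in the overexpressor (adjusted p = 6.01e-06) and Chst14 by 0.97 in the knockout (adjusted p = 7.51e-08) relative to control. On differentiation Chst15 fell by 1.33 in control (adjusted p = 1.77e-11), and the sulphotransferase gene Chst13 rose in the overexpressor from at most 3 counts per library to 645 to 952 counts, and by 2.91 in the knockout (adjusted p = 1.02e-09).

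The genes whose log2 CPM followed each member most closely were found over the 18 libraries among 10987 genes. The libraries of a group share line and stage, so these values of Pearson's r describe likeness across 6 groups and carry no test. The closest were Pck2 for Sparc (r = 0.995), Adamtsl3 for Thbs1 (0.985), Htra1 for Fn1 (0.982), Wls for Vcan (0.981), Tmem171 for Tnc (0.975), Lrrc32 for Bgn (0.973), Ccbe1 for Postn (0.972), Tnfrsf19 for Lum (0.967), Ttc23 for Thbs2 (0.964) and Metrnl for Dcn (0.945). Il17ra was among the closest 3 genes of both Tnc (0.961) and Thbs1 (0.974), and no other gene was shared between the members' closest 3.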

How the data were processed

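The authors deposited raw counts per Ensembl mouse gene, 1 column per library, which were the values used. Per the submitters' processing notes, reads were handled with FastQC 0.11.7, STAR 2.7.9a, featureCounts, Subread 2.0.3 and DESeq2 1.32.0 on mm10; the annotation release, the counting options and the use of strand are not given in the sources used here. A deposited table of transformed values was not used here. Gene symbols (55190 of 55450 IDs), positions and exon lengths came from GENCODE for GRCm38, the assembly that mm10 names.

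The test was that of edgeR 4.0.16 (R 4.3.3), with TMM factors (0.895 to 1.08), its filterByExpr filter (17912 genes left, with at least 99.97% of every library's counts) and the robust quasi-likelihood test. All 18 libraries entered 1 fit with 6 groups and 12 residual degrees of freedom, from which 12 contrasts were taken. The standard error is the log2 fold change divided by the square root of F. p-values were adjusted by Benjamini-Hochberg over all tested genes, with a threshold of 0.05. The fit was tried on simulated counts with known changes, at a fixed spread and only for overexpressor against control myoblasts. The other steps were not tried that way. A fold against a group at 0 used 3 counts per library as the floor, and log2 CPM for likeness used a prior count of 2. Levels per kilobase used the union of a gene's exons.

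The members and the other lists were chosen with earlier results of these data known, so their counts are descriptions. All 10 members are named; of each other list the text names the gene with the largest change among those that passed with a mean of 5 CPM or more in the higher group, per comparison, and for each member the gene most like it. Alternatives were DESeq2 size factors, library totals, no filter on low counts, DESeq2 1.42.0's Wald test, only the groups compared in the fit, a replicate block, each library left out in turn, and the longest transcript as length.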

Additional observations from a re-analysis of the deposited data

Results flagged for a closer look

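The responses to differentiation differed between lines by the interaction test for the members below; each value is the difference between 2 lines in the log2 change from myoblasts to myotubes. The overexpressor minus control was -1.35 for Sparc, -5.60 for Dcn, -2.49 for Vcan, -2.43 for Thbs2, -2.32 for Postn, 5.08 for Bgn and 1.09 for Thbs1. The knockout minus control was -1.69 for Sparc, -1.44 for Dcn, -2.49 for Vcan, -2.11 for Thbs2, -2.38 for Postn, -1.10 for Tnc, -1 for Bgn and -1.41 for Thbs1. For Lum the same comparison had an adjusted p of 0.000579, with no size given because control myoblasts were at 0. That call rests on 5 to 8 counts per library in knockout myoblasts. These 2 sets share the control libraries.

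The overexpressor minus the knockout was 0.33 for Sparc, -4.16 for Dcn, 0.88 for Tnc, 6.08 for Bgn and 2.50 for Thbs1. Dcn and Bgn, closely related proteoglycans, thus differed in opposite directions in the overexpressor against both other lines. Adjusted p-values of these differences ran up to 0.0077, for Sparc in the last set.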

How the results depend on the processing

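Each count of members past the threshold in either direction stayed within 1.5 times its value under every alternative; counts in 1 direction moved more in 3 comparisons. Members that fell on control differentiation went from 0 to 2 with library totals and to 1 with only those groups in the fit, members higher in overexpressor than in control myoblasts from 1 to 2 with only those groups, and members with a lower response in the overexpressor than in the knockout from 1 to 2 without replicate B of the overexpressor myotubes. Differences near 0 changed sign. Fn1 in knockout against control myoblasts (-0.02) ran from -0.07 to 0.04 with each library left out. Lum in knockout against control myotubes (-0.02) was 0.11 with DESeq2 size factors and with the DESeq2 Wald test, 0.03 with library totals, 0.04 with only those groups in the fit, and -0.24 to 0.13 with each library left out. Dcn in the same comparison (0.05) ran from -0.03 to 0.17. Tnc in control myotubes against myoblasts (0.05) was -0.19 with library totals, -0.02 with only those groups and -0.04 to 0.13 with each library left out. Postn in the overexpressor's against the knockout's response (0.07) ran from -0.41 to 0.30, the lowest without replicate C of the overexpressor myotubes (adjusted p = 0.336). Why these signs changed was not tested.

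The replicate letters did not pair the libraries: deviations from the group means correlated between -0.36 and 0.26 for the same letter, and 2 of 18 libraries correlated best with their own letter. With the letter as a replicate block, 5 members were called in overexpressor against control myoblasts, as without it, and the block changed no call of a member. Leaving out a library moved calls of Postn, Sparc, Tnc and Thbs2 as given above. Depth limits only Lum, whose counts were 0 to 8 in myoblasts.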
